A study of Sus scrofa with 20 samples.

Results

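The genes examined here make and take up cholesterol, and 8 symbols were listed for them: MSMO1, CYP51A1, HMGCS1, SQLE, FDFT1, SREBF2, INSIG1 and SCARB1. A symbol was matched to a reference transcript by its RefSeq accession, and 4 of the 8 were matched among 21755 reference IDs: MSMO1 (NM_213752.1), CYP51A1 (NM_214432.1, CYP51 in the RefSeq table), SQLE (NM_001101026.1) and SCARB1 (NM_213967.1). HMGCS1, FDFT1, SREBF2 and INSIG1 were not analysed here. RNA-Seq counts came from testis and liver of boars (Sus scrofa) with high or low androstenone in fat, with 5 samples per group and tissue and 1 library per sample. All groups shared the same breeding, a Duroc × F2 cross. The F2 came from F1 animals (Leicoma and German Landrace) and the Large White pig. The age label was 116 days for every sample. The study gives age at slaughter as an average over its boars. Single ages were thus not known, and whether the groups differed in age could not be tested. No animal was treated, and the groups were the extremes of a natural range. The study took both tissues from the same boars, but the labels do not tie a testis sample to a liver sample, so samples were not paired between tissues.

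Cholesterol is built from acetyl-CoA through mevalonate, farnesyl diphosphate, squalene and lanosterol, and cells also take it up from lipoproteins. Transcription of most enzymes of the route is driven by the sterol-sensing factor SREBP2 when membrane sterol is low. In the testis, Leydig cells use cholesterol as the substrate for testosterone and for androstenone, a steroid that collects in fat and causes boar taint, and germ cells make sterol intermediates of their own. The liver is a main organ of cholesterol synthesis, of lipoprotein clearance and of bile acid production. SQLE (squalene epoxidase) oxidises squalene, CYP51A1 removes the 14-alpha-methyl group of lanosterol, MSMO1 (also SC4MOL) oxidises the C4 methyl groups in the next part of the route, and SCARB1 (SR-BI) takes up cholesteryl ester from high-density lipoprotein.

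The 10 testis samples held 6161397 to 15975386 counts each, and the 10 liver samples held 5796973 to 26783002. Values are counts per 1000000 (CPM) after edgeR's TMM scaling within a tissue, given as mean ± SD over the 5 samples of a group. In a single sample, 3 counts, taken as the floor, amounted to 0.112 to 0.518 CPM, and every member lay well above it in every sample, with SCARB1 the sparsest at 69 to 489 counts per liver sample. These limits cover counting error only. Leydig cell INSL3 (819.8 to 4156 CPM) and germ cell PGK2 (191 to 566 CPM) were present in every testis sample, and ALB (56149 to 159518 CPM) in every liver sample. In the testis samples ALB was between 0.706 and 43.7 CPM. The labels do not state more than separate samples of a group, but the study took RNA from 5 boars per group. Within a tissue, p-values thus rest on the spread between boars. In bulk tissue fewer cells of a type and less RNA per cell cannot be told apart.

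In testis, the means of all 4 members were higher in the high androstenone group, and none passed the adjusted threshold of 0.05 in edgeR's quasi-likelihood test. Over all 18340 reference IDs tested, 0 (0%) passed it, and 583 (3.18%) had an unadjusted p under 0.05 with a higher mean in high androstenone testis. Among the members 3 of 4 had such a p, and MSMO1, which the study had named from these samples, was 1 of them. DESeq2, run as an alternative, called 0.654% of the IDs. The median log2 fold change of the members was 0.70, beside -0.02 over all IDs.

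SQLE, which commits squalene to the sterol branch, separated the groups. Its values were 72.5, 55.2, 56.6, 70.7 and 57.0 CPM in low androstenone testis (replicates 1 to 5) and 100.4, 101.5, 74.3, 100.3 and 100.0 CPM in high androstenone testis. Every high sample lay above every low sample, which 95 of 18340 IDs (0.518%) also did, and 4 of the 5 high samples lay within 1.5 CPM of each other. The nearest samples of the groups were low replicate 1 (72.5 CPM, 518 counts) and high replicate 3 (74.3 CPM, 559 counts). Counting error, 5.20% at the lowest SQLE count in testis (370), was wider than this gap and than the 1.5 CPM. The means were 62.4 ± 8.46 and 95.3 ± 11.8 CPM (SD, n = 5 each). This gave a log2 fold change of 0.61 ± 0.16 (SE), with an adjusted p of 0.328 in edgeR, 0.00357 in DESeq2 and an exact two-sided permutation p of 0.00794, the smallest that 5 against 5 samples allow.

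MSMO1, the C4-methyl sterol oxidase, had the largest fold difference among the members. The study itself named this gene from these samples, so its direction here is not independent evidence. By qRT-PCR the study reported the same direction in these samples and a similar pattern in other boars with high or low androstenone. Low androstenone testis gave 39.8, 62.5, 61.8, 57.9 and 85.7 CPM, and high androstenone testis gave 47.9, 277, 317, 138 and 179 CPM. High replicate 1 lay inside the low range, and the other 4 high samples lay above every low sample. The log2 fold change was 1.64 ± 0.37 (SE), a 3.11-fold difference (adjusted p = 0.320 in edgeR and 0.0479 in DESeq2). Without high replicate 1 it was 1.90 (adjusted p = 0.0504 in edgeR, the lowest of the 10 fits that each left out a sample, which reached up to 0.610).

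SCARB1, the uptake receptor, had a pattern like that of MSMO1. Its values were 15.4, 16.1, 16.7, 16.9 and 32.7 CPM in low androstenone testis and 17.3, 43.6, 38.7, 36.7 and 32.1 CPM in high androstenone testis. Here too high replicate 1 was near the low samples, while low replicate 5 was near the high ones, so the groups overlapped. High against low gave a log2 fold change of 0.78 ± 0.26 (SE; adjusted p = 0.411 in edgeR, 0.116 in DESeq2), and the exact permutation p was 0.0238.

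CYP51A1, the lanosterol demethylase, differed least. It gave 877, 506, 953, 884 and 779.9 CPM in low androstenone testis and 764, 991, 991, 1292 and 1000.2 CPM in high androstenone testis. The means of 800.1 ± 175 and 1008 ± 188 CPM (SD, n = 5 each) were closer than 1.5 times, and the ranges overlapped. Its log2 fold change was 0.33 ± 0.20 (SE; adjusted p = 0.609 in edgeR).

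**Figure D1:**
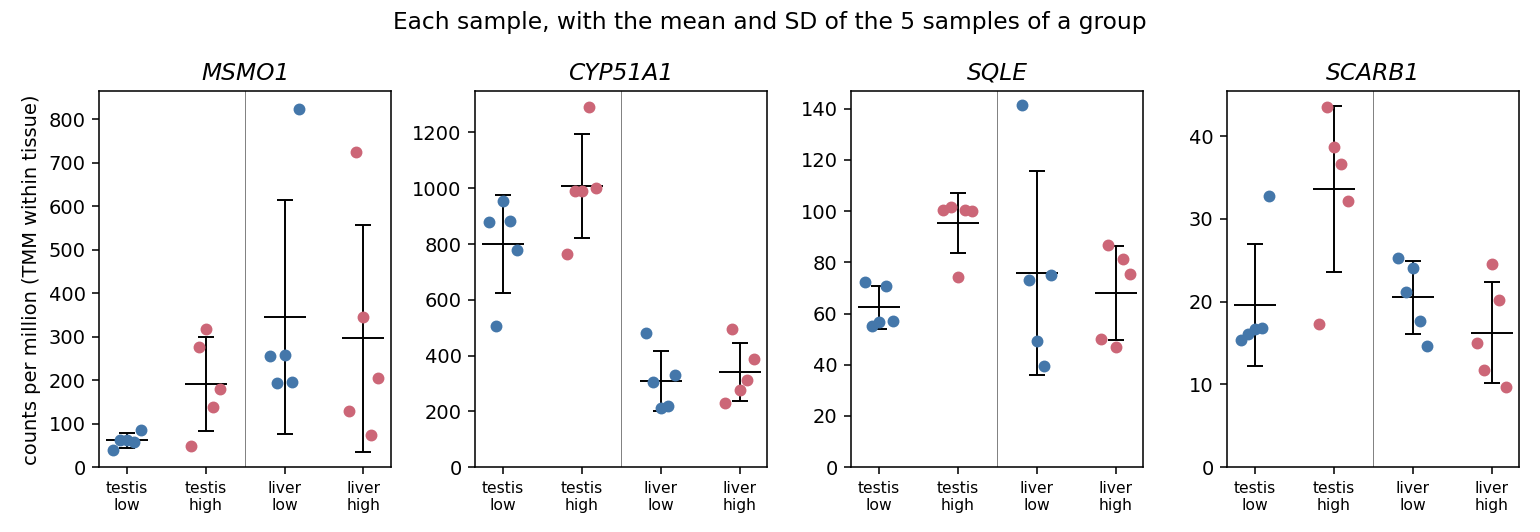
CPM (linear axis from 0, scaled within each tissue) of the 4 matched members in each of the 20 samples, with the mean (horizontal bar) and SD (vertical bar) of the 5 samples of a group; blue points are low and red points high androstenone. SQLE in testis is the comparison without overlap (55.2 to 72.5 against 74.3 to 101.5 CPM), and 1 high testis sample lies with the low ones in MSMO1 and SCARB1.

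Beyond the members, 8 of 19 listed sterol synthesis enzymes were matched, and 0 of the 8 passed the adjusted threshold in testis. With the members, 11 of 12 genes had a higher mean in high androstenone testis, beside 48.0% of all IDs, and 5 had an unadjusted p under 0.05, all in that direction (3.18% of all IDs). Some of these genes co-varied over the same samples, and the lists were chosen with earlier results known, so the counts are not independent evidence. The median log2 fold change of the 8 enzymes was 0.34. SC5D, the lathosterol 5-desaturase late in the route, was at 19.0 CPM on average in low and 39.8 CPM in high androstenone testis. Its values ran from 16.2 to 24.5 CPM in the low group, and the high group gave 21.9, 50.1, 57.6, 31.0 and 38.3 CPM, so only high replicate 1 fell within the low range. The log2 fold change was 1.06 ± 0.24 (SE; adjusted p = 0.320 in edgeR and 0.00499 in DESeq2).

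HSD17B7, the 3-ketosteroid reductase that acts with MSMO1 in C4 demethylation, was low in abundance and had the same shape. It gave 4.20 to 7.14 CPM in low androstenone testis and 3.35, 14.5, 12.0, 16.8 and 13.3 CPM in high androstenone testis, of which the 3.35 CPM of replicate 1 was below every low sample. The log2 fold change was 1.06 ± 0.33 (SE; adjusted p = 0.361 in edgeR). NSDHL, the dehydrogenase of the same C4 step, gave only 0.29 ± 0.25.

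The early enzymes ACAT2 (0.32 ± 0.16), MVK (0.36 ± 0.23), PMVK (-0.21 ± 0.25) and FDPS (0.16 ± 0.19) and the sterol reductase TM7SF2 (0.52 ± 0.44) had smaller log2 fold changes or larger errors, given as estimate ± SE. PMVK was the single gene of the 12 with a lower mean in high androstenone testis.

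Of 9 listed sterol-sensing genes 1 was matched (NR1H3), and of 28 listed genes for uptake, transport, storage and export 13 were matched. None of these 14 had an adjusted or an unadjusted p under the threshold in testis. The median log2 fold change of the 13 transport genes was 0.18, with 8 of 13 higher (48.0% of all IDs). NPC1, which releases cholesterol from lysosomes, gave 0.41 ± 0.24, and STARD4, a cytosolic sterol carrier, gave 0.48 ± 0.29 (log2 fold change ± SE).

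**Figure D2:**
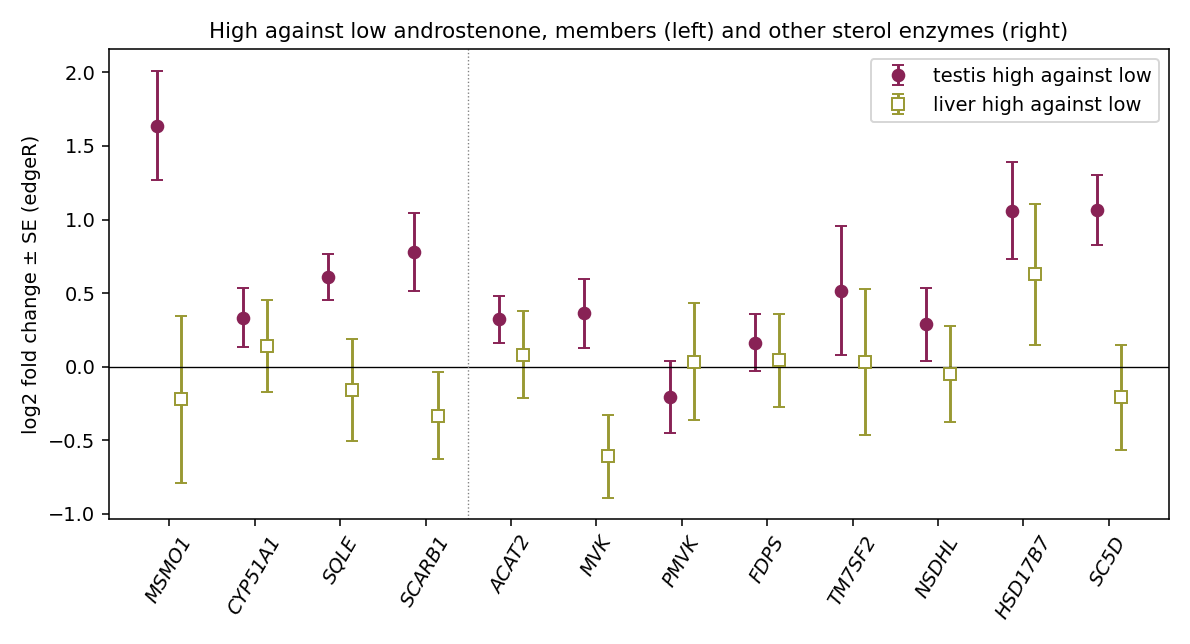
Log2 fold change of high against low androstenone with its SE (vertical axis, edgeR) for the 4 members, left of the dotted line, and 8 other sterol enzymes in testis (filled circles) and liver (open squares). In testis 11 of 12 points lie above 0, from 0.16 for FDPS to 1.64 for MSMO1, and in liver 6 of 12 do.

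High replicate 1 was the lowest of the 10 testis samples in 6 of the 12 sterol genes. It also had the lowest summed Leydig cell markers of the high group (1150 CPM, group range to 4678 CPM), the lowest summed Sertoli cell markers (81.6 CPM, group range to 268 CPM) and the highest summed germ cell markers (2757 CPM). The Sertoli cell sum was mostly CLDN11, which was lowest in this sample (60.7 CPM). Of the other Sertoli cell markers within the high group, AMH and SOX9 were lowest in replicate 4 and WT1 in replicate 3. Over the groups, 4 of 7 Leydig cell markers (CYP17A1, HSD3B1, INSL3 and LHCGR) summed to 998 to 4634 CPM in low and 1150 to 4678 CPM in high androstenone testis. CYP17A1, the enzyme that turns pregnenolone towards androgens, had a log2 fold change of 0.86 with an adjusted p of 0.513 in edgeR, and the values of INSL3, LHCGR and HSD3B1 were 0.23, 0.18 and -0.36. The 4 matched hemoglobin genes summed to 165 to 1524 CPM in the low and 73.2 to 226 CPM in the high group. The part of these cell types in the differences of the sterol genes was not tested.

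In liver, 0 of the 4 members passed the adjusted threshold, as did 0% of the 15855 IDs tested, and 465 IDs (2.93%) had an unadjusted p under 0.05. None of the members was among those. MSMO1 gave 255, 193, 259, 196 and 824.5 CPM in low androstenone liver and 130.0, 725, 345, 74.8 and 206 CPM in high androstenone liver. Low replicate 5 stood apart from the other low samples, while the high samples were spread widely, with replicate 2 the highest. The low and high means were 346 ± 269 and 296 ± 260.4 CPM (SD, n = 5 each). The log2 fold change was -0.22 ± 0.57 (SE; adjusted p = 0.9999 in edgeR). It became 0.39 without low replicate 5 and -0.87 without high replicate 2.

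CYP51A1 gave 479, 306, 212, 219.6 and 329 CPM in low and 230.0, 496, 278, 313 and 389 CPM in high androstenone liver, with overlapping ranges and a log2 fold change of 0.14 ± 0.32 (SE). SQLE gave 141.5, 73.2, 49.3, 39.7 and 75.2 CPM in low and 49.95, 86.6, 47.0, 81.2 and 75.7 CPM in high androstenone liver, with a log2 fold change of -0.16 ± 0.35 (SE). SCARB1 gave 25.2, 21.2, 24.0, 17.7 and 14.6 CPM in low and 15.0, 11.7, 24.6, 20.2 and 9.72 CPM in high androstenone liver, with a log2 fold change of -0.34 ± 0.30 (SE). For these 3 genes the groups overlapped and the exact permutation p ranged from 0.206 for SCARB1 to 0.960 for SQLE.

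Among the 8 other sterol enzymes 0 passed the adjusted threshold in liver, 5 had a higher and 3 a lower mean in high androstenone liver. MVK, mevalonate kinase, had the single unadjusted p under 0.05, with means of 139.9 CPM in low and 91.8 CPM in high androstenone liver and a log2 fold change of -0.61 ± 0.28 (SE). FDPS gave 0.04 ± 0.31 and SC5D gave -0.21 ± 0.36 (log2 fold change ± SE). Of the 13 transport genes, NPC1 gave 0.17 ± 0.39 and STARD4 gave 0.27 ± 0.47. CD36, a scavenger receptor and fatty acid transporter singled out after its values were seen, was at 7.81 CPM in low and 4.35 CPM in high androstenone liver without overlap (0.328% of all IDs were lower in this way), and its log2 fold change of -0.83 ± 0.29 (SE) had an adjusted p of 0.9999 in edgeR. Beside these, the hepatocyte factor HNF4A, also singled out after its values were seen, was at 17.5 to 23.4 CPM in low and 12.0 to 17.4 CPM in high androstenone liver. Its log2 fold change was -0.50 (adjusted p = 0.9999 in edgeR). The 6 of 8 matched hepatocyte markers summed to 66566 to 179113 and 65524 to 131592 CPM, which was mostly ALB. Those other than HNF4A had log2 fold changes from -0.69 for CYP2E1 to -0.10 for APOA1 (adjusted p = 0.9999 in edgeR for each). The part of HNF4A and of the other markers in the liver values was not tested.

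The difference between the tissues in the androstenone contrast was tested as an interaction over all 20 samples. No member passed it (adjusted p = 1.0 in edgeR for each), as for 0% of 19065 IDs. The estimates, testis contrast minus liver contrast on the log2 scale, were 1.94 ± 0.74 for MSMO1, 1.20 ± 0.42 for SCARB1, 0.90 ± 0.40 for SQLE and 0.31 ± 0.40 for CYP51A1 (SE). The unadjusted p was under 0.05 for the first 3 of these, as for 3.04% of all IDs in that direction. The tissues were thus not shown to differ in the contrast for any member.

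Between the tissues the members differed more clearly, and not all in one direction. In a fit of all 20 samples with 1 common scaling, 3 of 4 members were lower and 1 was higher in testis. Over all IDs 34.1% were called higher in liver and 45.1% higher in testis, with a median log2 difference of 0.31, so a call alone is no particular feature of the members.

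MSMO1 was at 98.1 to 1170 CPM in the 10 liver samples (median 321 CPM) and at 27.6 to 228.5 CPM in the 10 testis samples (median 53.1 CPM). The upper testis samples reached into the liver range, while 7 of 10 testis samples lay below every liver sample. MSMO1 was lower in testis by a log2 difference of -2.53 ± 0.39 (SE; adjusted p = 1.98e-06 in edgeR), a 5.79-fold difference. SQLE was also lower in testis, with 39.5 to 73.9 CPM against 54.9 to 217 CPM in liver and a log2 difference of -0.88 ± 0.20 (SE; adjusted p = 0.000295 in edgeR).

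SCARB1 was at 10.7 to 31.7 CPM in testis and 12.7 to 38.6 CPM in liver. The ranges overlapped widely, and the log2 difference of -0.50 ± 0.21 (SE; adjusted p = 0.0336 in edgeR) lost its call in 9 of the 20 fits that each left out a sample and with RLE scaling (adjusted p = 0.0532, within a range of 0.0172 to 0.0532 over the 7 settings that kept all samples). CYP51A1 was the member with a higher testis level, at 363 to 914 CPM against 289 to 734 CPM in liver. Its log2 difference of 0.48 ± 0.20 (SE; adjusted p = 0.0319 in edgeR) lost its call in 6 of those 20 fits and with the filterByExpr filter (adjusted p = 0.0550, the highest of the 7 settings, of which the lowest was 0.00765).

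The ratio of 2 genes' counts within a sample does not depend on any scaling. MSMO1 counts per CYP51A1 count were 0.0453 to 0.124 in low and 0.0627 to 0.320 in high androstenone testis. In liver they were 0.533 to 2.50 in the low and 0.239 to 1.46 in the high group. The ratio of these 2 transcripts was thus mostly lower in testis, with 2 of 10 testis samples above the lowest liver sample. Enzyme amounts and activity were not measured. CYP51A1 counts per SQLE count were 7.61 to 16.8 over the testis samples and 3.39 to 5.91 over the liver samples, which did not overlap. Gene pairs beyond the members were not screened for this.

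The other enzymes were split in the same manner. Of 8, 6 were called lower in testis, 1 higher and 1 (ACAT2, log2 difference 0.07 ± 0.17) was not called. Over all IDs 34.1% were called lower in testis and 45.1% higher, and the list was not tested against these shares. NSDHL was higher in testis by 1.54 ± 0.23, and 9 of 10 testis samples lay above every liver sample. SC5D (-4.59 ± 0.27), TM7SF2 (-4.35 ± 0.42), PMVK (-4.16 ± 0.28) and MVK (-2.39 ± 0.19) were lower in testis without any overlap of samples, as were 15.3% of all IDs. HSD17B7 (-2.98 ± 0.33) and FDPS (-0.49 ± 0.20) were lower in testis with overlap, and FDPS lost its call in 2 of the 20 fits that each left out a sample (without testis high replicate 1 and without liver low replicate 1, the higher adjusted p being 0.0804 in edgeR). All are log2 differences, testis minus liver, with the SE. Of the transport genes 10 of 13 were called lower in testis and 1 higher (34.1% and 45.1% of all IDs). STARD4 was at -2.81 ± 0.31, CD36 at -2.04 ± 0.24 and NPC1, which was not called, at 0.16 ± 0.24. The gene called higher was LIPE, the hormone-sensitive lipase that frees cholesterol from its esters, which is named after its value was seen. It averaged 23.0 CPM in testis and 0.186 CPM in liver, where it was at the floor, so no fold is given.

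**Figure D3:**
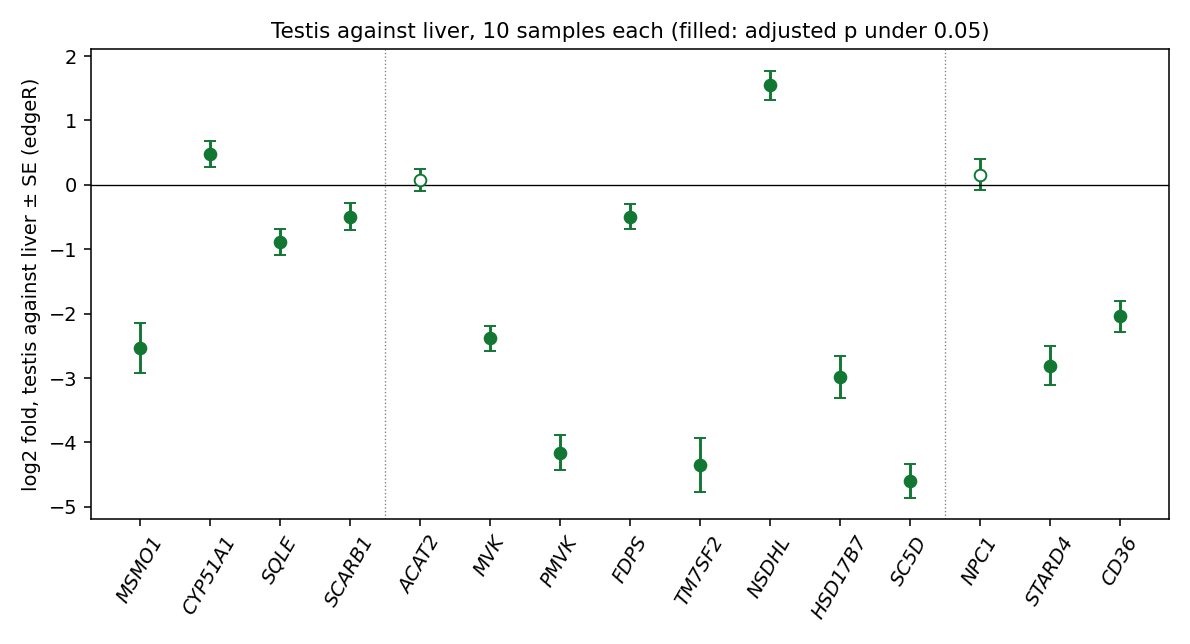
Log2 difference of testis against liver with its SE (vertical axis, edgeR, 10 samples per tissue) for the 4 members, 8 other sterol enzymes and 3 transport genes, separated by dotted lines; filled points had an adjusted p under 0.05. Of the filled points, those of CYP51A1 and NSDHL lie above 0, while SC5D, TM7SF2 and PMVK lie below -4.

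Co-variation over the 10 samples of a tissue was computed on log2(CPM + 0.5) for the 6 member pairs of each tissue, 12 relations in all. The median Pearson's r over the 6 pairs was 0.52 in testis and 0.05 in liver. In testis the androstenone groups contributed to this value, since the median was 0.25 for deviations from the group means, and in liver it was 0.03.

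MSMO1 and SCARB1 moved together in testis. Pearson's r was 0.92 (permutation p = 0.00025, adjusted p = 0.00228) and Spearman's rho was 0.83 (adjusted permutation p = 0.0274). It was 0.88 without the 2 samples farthest from the MSMO1 median and 0.84 for deviations from the group means (adjusted exact permutation p = 0.0308). Leaving out each sample in turn gave 0.89 to 0.96. High replicate 1, low on both genes within its group, and low replicate 5, high on both within its group, lay on this line.

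In liver the same pair had an r of -0.25 (adjusted permutation p = 0.592) and a rho of -0.08 (adjusted permutation p = 0.863), and r was 0.27 without the 2 farthest samples. Whether the 2 tissues differ in this r was not tested. CYP51A1 was related less closely to MSMO1 (r = 0.49, rho = 0.62) and to SCARB1 (r = 0.56, rho = 0.60) in testis, with adjusted permutation p-values of 0.328 and 0.229 for r and 0.178 for both rho. For deviations from the group means these r were 0.21 and 0.33 (adjusted exact permutation p = 0.641 for both). For SQLE the groups did not overlap in testis, so a pooled r would follow the group difference. Within the groups its r was -0.51 with MSMO1, 0.28 with CYP51A1 and -0.32 with SCARB1 (adjusted exact permutation p = 0.641 for each).

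In liver the member pair that moved together was CYP51A1 and SQLE. Pearson's r was 0.88 (permutation p = 0.00038, adjusted p = 0.00228), rho was 0.89 (adjusted permutation p = 0.0133), r without the 2 farthest samples was 0.85, and r within the groups was 0.91 (adjusted exact permutation p = 0.0175). The samples at the top were low replicate 1 and high replicate 2. None of the other 5 liver pairs had an adjusted p under 0.05, and all 3 pairs with SCARB1 had a negative r, from -0.32 to -0.05 (adjusted permutation p from 0.483 to 0.895, rho from -0.32 to -0.08).

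**Figure D4:**
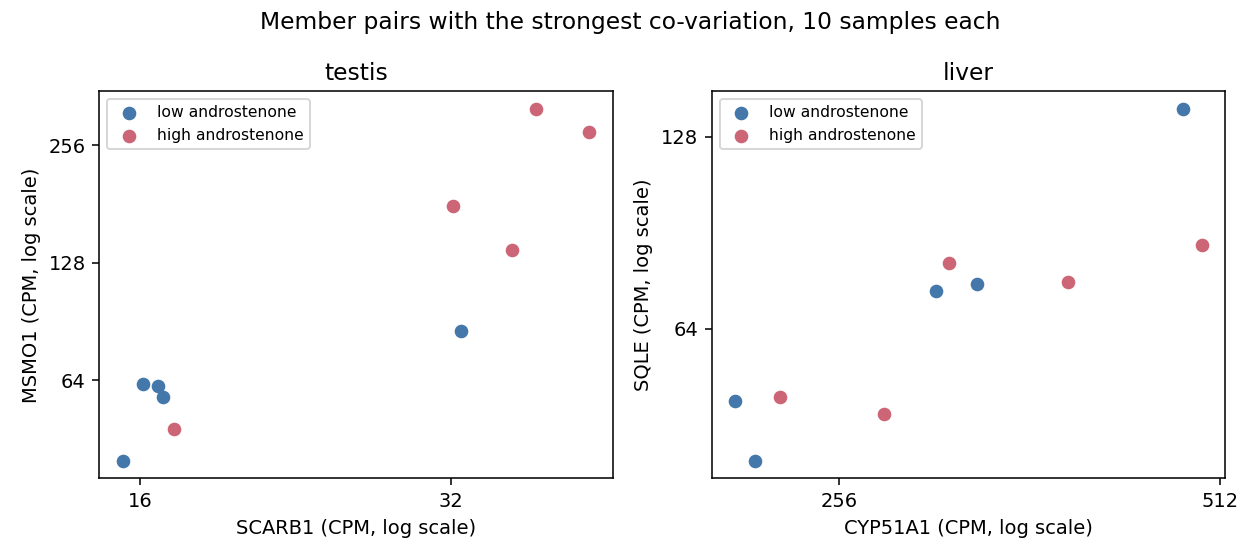
CPM of SCARB1 and MSMO1 in the 10 testis samples (left) and of CYP51A1 and SQLE in the 10 liver samples (right), both axes on a log scale, with low androstenone samples in blue and high in red. The testis points fall along a line from 15.4 and 39.8 CPM (low replicate 1) to the high samples other than replicate 1, at or above 32.1 and 138 CPM, with r = 0.92, and the liver points, of both groups alike, follow a line with r = 0.88.

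The members were also related to each of the 8 other enzymes, which gave 64 relations over both tissues. In testis MSMO1 had a positive r with all 8 and passed the adjusted threshold with 3 of them, SC5D (r = 0.93, adjusted permutation p = 0.0230), ACAT2 (r = 0.89, adjusted permutation p = 0.0275) and HSD17B7 (r = 0.85, adjusted permutation p = 0.0369). SCARB1 passed it with HSD17B7 (r = 0.88, adjusted permutation p = 0.0369) and FDPS (r = 0.81, adjusted permutation p = 0.0428). CYP51A1 passed it with NSDHL (r = 0.89, adjusted permutation p = 0.0369), and without the 2 samples farthest from the CYP51A1 median this r was 0.15, so the relation rested on those samples. For the other relations just named, r without the 2 farthest samples was 0.70 to 0.86. By Spearman's rho, from 0.60 to 0.83 for these 6, none of the 64 relations passed after adjustment (lowest adjusted permutation p 0.0877), and none of the 6 passed within the groups.

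In liver MSMO1 passed the adjusted threshold for r with HSD17B7 (r = 0.84, rho = 0.79, adjusted permutation p = 0.0369 for r) and ACAT2 (r = 0.78, rho = 0.84, adjusted permutation p = 0.0428 for r). The relation with HSD17B7 also passed within the groups (r = 0.92, adjusted exact permutation p = 0.0311), while r without the 2 farthest samples was 0.81 for HSD17B7 and 0.52 for ACAT2. CYP51A1 and SQLE both passed with SC5D (r = 0.83 and 0.80, rho = 0.75 and 0.66, adjusted permutation p = 0.0369 for both r), and r without the 2 farthest samples was 0.58 and 0.79. As in testis, no rho among these passed after adjustment. SCARB1 passed with none of the 8 in liver, and its median r with them was -0.101, beside 0.735 in testis.

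**Figure D5:**
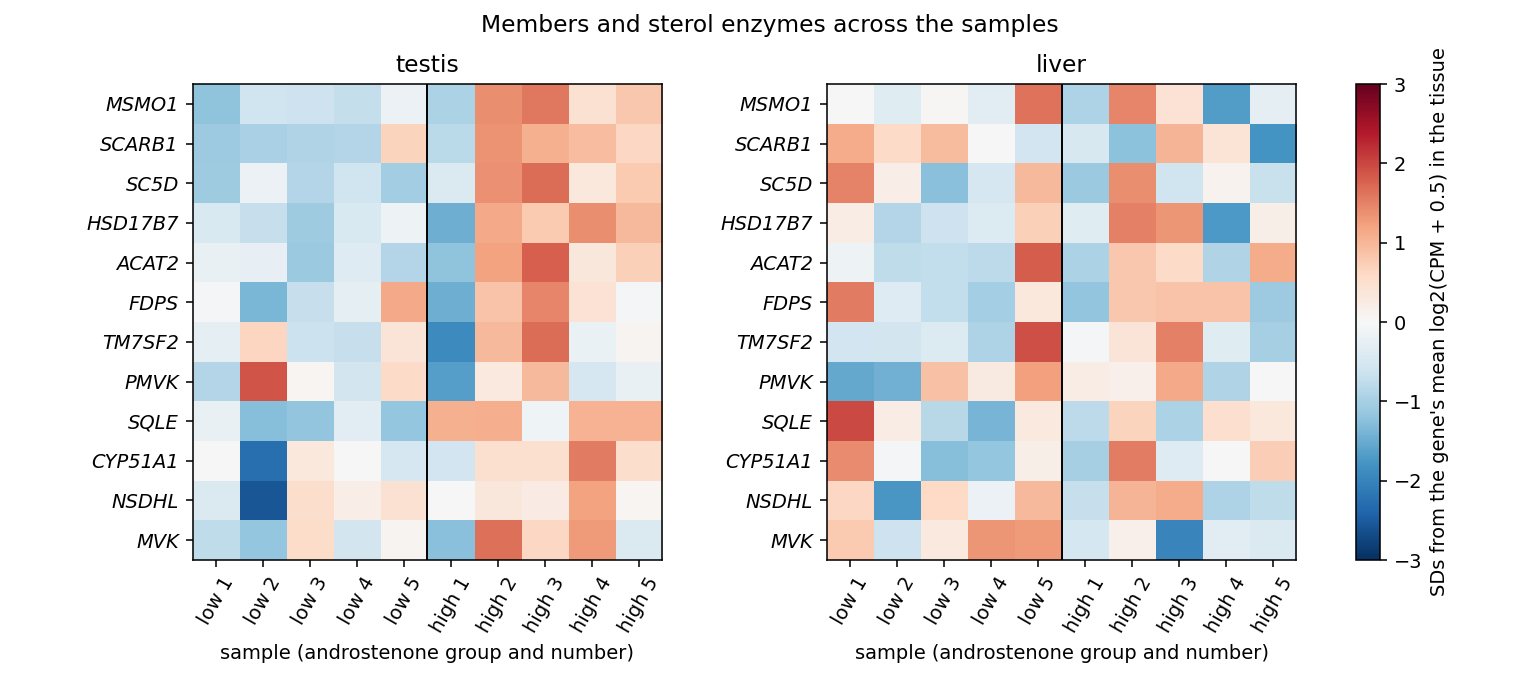
Heat maps of the 4 members and 8 other sterol enzymes (rows) in the 10 samples of testis (left) and liver (right), with low androstenone samples left of the black line; colour gives the distance from the gene's mean log2(CPM + 0.5) in SDs. In testis, high 2 and high 3 are red in most rows and high 1 is blue in most, while low 2 is darkest in CYP51A1 and NSDHL; in liver, low 5, high 2 and low 1 have the highest mean ranks over the 12 genes (7.92, 7.67 and 7.25 of 10).

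Low replicate 2 was the lowest testis sample for CYP51A1 (506 CPM), NSDHL (212 CPM) and SQLE (55.2 CPM). It was also the lowest for the germ cell genes PGK2 (191 CPM), ODF1 (47.8 CPM) and TNP1 (481 CPM), and all 3 of 8 matched germ cell markers were thus at their minimum there. Over the 10 samples the mean log2 level of these 3 markers had an r of 0.52 and a rho of -0.12 with CYP51A1 (adjusted permutation p = 0.302 and 0.868 over 16 relations with marker lists). The r turned to -0.51 without low replicate 2, so it rested on that sample.

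The 4 Leydig cell markers, taken as a mean log2 level, were related to SCARB1 (r = 0.79, rho = 0.77) and MSMO1 (r = 0.76, rho = 0.82) in testis, with an adjusted permutation p of 0.0661 for both r (unadjusted 0.00845 and 0.0122) and of 0.0970 and 0.0942 for rho. Without the 2 farthest samples r was 0.73 and 0.63. Within the androstenone groups r was 0.91 for SCARB1 (adjusted exact permutation p = 0.00444) and 0.89 for MSMO1 (adjusted exact permutation p = 0.0122). For CYP51A1 and SQLE the values within the groups were 0.24 and -0.49 (adjusted exact permutation p = 0.617 and 0.430). These within-group values pool the deviations of both groups, and how far cell numbers take part in this was not tested. HSD3B1, with group means of 1.99 to 6.32 CPM over both tissues, has the same weight in the Leydig cell mean as the other markers. In liver no member passed with the hepatocyte markers, and the largest r was 0.58 for MSMO1 (rho = 0.60, adjusted permutation p = 0.264 for r and 0.295 for rho).

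The reference IDs whose profile was most like the members were found by their r with the mean of the 4 members' standardised log2 levels over the 10 samples of a tissue, as a description without a test, among named IDs of at least 10 mean CPM. Of 2894 named IDs in testis these were BCKDHB, a subunit of the branched-chain keto acid dehydrogenase (r = 0.90), EXT1, a heparan sulfate polymerase (0.88), LOC100523909 (0.87), ZDHHC23, a palmitoyltransferase (0.86), and WDR88 (0.85). The study's tables name LOC100523909 as CYP4B1. All 4 members had higher means in high androstenone testis, so the testis r also takes in the group difference. SC5D came at rank 31 (r = 0.79), and HSD17B7, below 10 mean CPM and so not ranked, had an r of 0.88. Of 2130 named IDs in liver they were OSTM1 (r = 0.92), the complement component C5 (0.92), SC5D (0.88), HSD17B4, a peroxisomal beta-oxidation enzyme (0.87), and AGMO, which cleaves ether lipids (0.85), with FDPS at rank 8 (0.83). The median r over the named IDs was 0.03 in testis and 0.04 in liver.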

How the data were processed

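RNA-Seq counts of testis and liver from boars with high or low fat androstenone were used (5 samples per group and tissue, 1 library each). The authors made full-length cDNA with a SMART kit, sequenced 100-bp single reads, used CASAVA 1.7 for filtering and BWA for alignment to mRNA of RefSeq and UniGene (Sscrofa 9.2), and deposited counts of reads per reference ID, not normalized. The counting of reads that fit several sequences is not given in the sources used here, and strand was not used. Of 21755 IDs 10 were listed 4 times and used once, and 6692 had a symbol from RefSeq (Sscrofa11.1, names only) or the study's tables. The members and gene lists were chosen with earlier results of these data known.

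edgeR 4.0.16 (TMM, IDs with at least 10 summed counts, quasi-likelihood test, Benjamini-Hochberg over all IDs, threshold 0.05) was the main test, and the SE is the absolute log2 fold change over the square root of F. DESeq2 1.42.0, RLE scaling, other filters, a robust fit, a fold of at least 1.5, a replicate block, 1 fit of all 20 samples, removal of hemoglobin IDs and leaving out each sample were alternatives. Single genes were compared by exact permutation of log2(CPM + 0.5), and correlations by permutation (100000 resamples) or, within groups, exactly. The procedure was tested on simulated data. Named were all members, fixed pathway genes where matched (FDPS, SC5D, NPC1, STARD4), list genes called in an androstenone contrast (0) and the 5 IDs most like the members in each tissue with at least 10 mean CPM. The other list genes with values were added after they were seen. No transcript lengths were used, so levels were not compared between genes. A further 2 of the listed genes are not reported here and were left out of the list counts.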

Additional observations from a re-analysis of the deposited data

Results flagged for a closer look

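Within a group of 5 samples, a value was singled out when its gap to the nearest other sample took up more of the group's range than the 95% limit of Dixon's test allows. This was applied to 15 genes (the 12 sterol genes, NPC1, STARD4 and CD36) in 4 groups each, 60 groups in all, and 6 were singled out, 3 of them for members. Chance alone gives about 1 in 20 groups for independent, normally distributed values. Here CPM were used without logs and some of the genes co-varied, so no excess over this rate can be read from the count. For the members these were MSMO1 in liver low replicate 5 (824.5 CPM, the other 4 samples at 193 to 259 CPM), SQLE in testis high replicate 3 (74.3 CPM, the others at 100.0 to 101.5 CPM) and SCARB1 in testis low replicate 5 (32.7 CPM, the others at 15.4 to 16.9 CPM). Liver low replicate 5 was also singled out for ACAT2 (94.6 CPM, the others at 45.5 to 54.6 CPM) and TM7SF2 (1256 CPM, the others at 247 to 332 CPM). In testis, NSDHL was highest in high replicate 4 (781 CPM, the others at 514 to 578 CPM).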

How the results depend on the processing

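With DESeq2, 2 of 4 members (MSMO1 and SQLE) and 1 other sterol enzyme (SC5D) passed the adjusted threshold in testis, where edgeR called 0 of each, and DESeq2 called 120 IDs in testis, 7 in liver and 1 for the interaction against 0 in edgeR; the cause was not tested. No other setting called a member in an androstenone contrast. With a fold of at least 1.5, 2 of 4 members (MSMO1 and SQLE) kept the tissue call, since the other differences are smaller. Leaving out each sample, the members called were 0 to 0 in both androstenone contrasts and the interaction and 2 to 4 between tissues, with 2 without testis low replicate 3, testis low replicate 4 or liver low replicate 3. Without testis low replicate 5, 2 of all IDs were called in testis. In these fits the liver log2 fold change ran from -0.87 to 0.39 for MSMO1, -0.033 to 0.36 for CYP51A1, -0.31 to 0.20 for SQLE, -0.49 to 0.01 for SC5D, -0.055 to 0.27 for FDPS, -0.26 to 0.36 for NPC1 and -0.03 to 0.65 for STARD4, and that of PMVK in testis from -0.34 to 0.015. FDPS in liver was also -0.041 in the fit of all 20 samples. The median r of the member pairs lay between 0.45 and 0.64 in testis, and between -0.04 and 0.14 for liver samples, and the testis value was 0.25 for deviations from the group means. Labels give the groups shared replicate numbers, but same-numbered samples did not deviate together in every pair (r from -0.06 to 0.17 in testis low against high, -0.36 to 0.49 in liver low against high and -0.06 to 0.43 between tissues), and 4 of 10 testis samples matched best the liver sample of their own number. Between tissues r was over 0.1 in 3 of the low and 4 of the high androstenone pairs. With the replicate block 0 members were called in testis, 0 in liver, 4 between tissues and 0 for the interaction, so no call changed. The lowest count of a member was 69, for SCARB1 in liver, where the counting error is 12.0%.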
